A study of Mus musculus with 17 samples.

Results

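Nicotinic acetylcholine receptors and the small proteins that bind them were followed across 3 mouse genotypes. The 9 genes described here are Lynx1, Ly6h, Lypd1, Lypd6, Chrna4, Chrna5, Chrna7, Chrna10 and Chrnb2. They were taken by symbol from a table of 56953 genes, each symbol matched 1 gene, and all 9 passed the filter on low counts. Lynx1 was selected on its measured level, as higher in hTau than in both other genotypes, and the other members were taken as its relatives and receptors. Its values against hTau are therefore given as a description, with no test.

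RNA from prefrontal cortex of mice on the B6C3F1/J background was sequenced from 5 WT, 6 hTau and 6 CgA-KO/hTau animals. Their age is 8 months in the study's methods, and a legend of the study gives another age for these cortices. The hTau mice are heterozygous PS19 animals, in which the Prnp promoter drives human MAPT (tau) with the mutation P301S. CgA-KO/hTau mice carry that transgene too and lack Chga, the gene of chromogranin A (CgA), in the whole body from conception. The knockout line was made on a mixed background and then backcrossed, so its background can differ from that of the other mice. The comparisons ask how the tau transgene changes the cortex and how the loss of CgA changes it within tau mice. The sex of each animal is not given beside its library, and nothing in the labels says whether libraries shared a litter or a preparation day, so p-values measure the spread between these libraries.

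Nicotinic receptors are cation channels of pentameric build that open when acetylcholine binds. In cortex, receptors of Chrna4 and Chrnb2 subunits, some with the accessory subunit Chrna5, and receptors of Chrna7 alone carry most of the nicotinic response. Lynx1 and its relatives of the Ly6/uPAR family resemble snake toxins in fold, sit on the membrane by a lipid anchor and bind these receptors. Lynx1 is known as a brake on nicotinic signalling and on plasticity of the adult cortex. CgA is also linked to these receptors, since catestatin, a peptide cut from it, blocks nicotinic receptors of chromaffin cells.

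Levels are CPM, deposited counts put on the same library size by TMM, and changes are log2 fold changes with their standard errors (SE). The test was the quasi-likelihood test of edgeR, and a gene was called at a Benjamini-Hochberg adjusted p under 0.05 over all 23062 genes tested. The total count was 8838334 to 227651681 per library, with WT replicate 4 the shallowest. Chga was at 0 counts in 6 of 6 CgA-KO/hTau libraries and at 152 to 180 CPM in WT and 162 to 177 CPM in hTau. Prnp spanned 748 to 914 CPM in WT, 1970 to 2370 CPM in hTau and 1240 to 2080 CPM in CgA-KO/hTau.

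Some libraries stood apart. Over 9876 genes with a mean of at least 10 CPM, the median absolute log2 difference between libraries was 0.046 to 0.061 among hTau replicates 4 to 6 and 0.081 between CgA-KO/hTau replicates 1 and 3. It was at least 0.112 for every other pair, with a median of 0.24 over all 136 pairs. The study gives its n as mice of each genotype, and the fit takes every library as independent. Whether these closest libraries are independent was not tested. Excitatory neuron markers of cortex summed to 2480 to 5400 CPM over all libraries. Markers of striatum, the region beneath the frontal cortex, summed to 1640 to 5100 CPM in WT, 609 to 715 CPM in hTau and 540 to 3280 CPM in CgA-KO/hTau, where replicates 1 and 3 were at 3220 and 3280 CPM. Choroid plexus markers summed to 1120 CPM in WT replicate 5, against 14.5 to 18.6 CPM in the other WT libraries and 3.82 to 13.9 CPM in the other genotypes. For named members and list genes whose calls rest on these libraries, values without some of the libraries are given below. The settings that leave out pairs or groups of libraries were chosen after seeing the data.

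Promoter sequences are shown for the members that were called and for the main receptor pair, whose levels varied together across libraries. Each is the RefSeq window of build GRCm38.p6 from 250 bases before to 50 bases after a gene start, written 5′ to 3′ on the gene's own strand. Capitals mark a GC box (GGGCGG on either strand) or an E-box (CACGTG). RefSeq gave a window for 7 of the 9 members, 10 windows in all, and Lynx1 and Ly6h are named only. For Lypd1, 1 of its 3 starts is shown, the one that holds an E-box.
Lypd1 (chr1:125912165-125912464, minus strand): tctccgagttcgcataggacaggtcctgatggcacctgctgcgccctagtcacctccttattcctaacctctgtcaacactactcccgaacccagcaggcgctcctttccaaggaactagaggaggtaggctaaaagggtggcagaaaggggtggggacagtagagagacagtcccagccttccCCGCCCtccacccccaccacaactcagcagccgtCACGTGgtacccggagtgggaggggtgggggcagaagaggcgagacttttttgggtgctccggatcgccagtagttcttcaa
Chrna10 (chr7:102116664-102116963, minus strand): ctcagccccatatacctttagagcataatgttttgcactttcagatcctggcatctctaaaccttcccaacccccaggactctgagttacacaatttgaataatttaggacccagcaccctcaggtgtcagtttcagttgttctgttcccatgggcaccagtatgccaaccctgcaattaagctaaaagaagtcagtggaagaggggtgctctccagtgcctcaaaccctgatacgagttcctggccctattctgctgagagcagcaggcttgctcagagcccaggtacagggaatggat
Chrna4 (chr2:181039128-181039427, minus strand): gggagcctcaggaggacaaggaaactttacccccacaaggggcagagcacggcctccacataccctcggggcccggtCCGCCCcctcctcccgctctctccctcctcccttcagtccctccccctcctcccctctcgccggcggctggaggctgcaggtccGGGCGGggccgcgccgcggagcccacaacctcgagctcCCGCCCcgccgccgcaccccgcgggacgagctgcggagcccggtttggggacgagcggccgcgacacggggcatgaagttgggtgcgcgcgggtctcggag
Chrnb2 (chr3:89764583-89764882, minus strand): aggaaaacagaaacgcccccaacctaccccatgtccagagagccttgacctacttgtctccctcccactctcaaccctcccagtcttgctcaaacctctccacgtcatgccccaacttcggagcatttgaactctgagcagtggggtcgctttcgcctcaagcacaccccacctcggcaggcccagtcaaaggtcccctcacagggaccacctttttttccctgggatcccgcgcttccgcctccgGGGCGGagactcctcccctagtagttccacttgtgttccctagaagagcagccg

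Among these windows, the one of Chrna4 held 3 GC boxes and was 74.3% G and C. The window of Chrnb2 held 1 GC box at 59.0% G and C, and that of Lypd1 held 1 GC box and 1 E-box, also at 59.0%. The window of Chrna10 held none of the motifs searched and was 49.3% G and C. Of all 32544 RefSeq windows of this length, 35.9% held a GC box, 7.17% an E-box, 13.6% the letters TATAAA and 1.8% the letters TGACGTCA of a cAMP response element, on either strand. No member window held either of the last motifs. A match is a description of letters, and no binding was measured here.

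Lynx1 (ENSMUSG00000022594) lies on chromosome 15 from 74747852 to 74753046, minus strand, in GRCm38. Its level was 346, 336, 319, 282 and 241 CPM in WT replicates 1 to 5. It was 454, 579, 532, 554, 557 and 559 CPM in hTau replicates 1 to 6. In CgA-KO/hTau replicates 1 to 6 it was 310, 308, 307, 376, 364 and 311 CPM. The lowest hTau library, replicate 1, lay above the highest library of both other genotypes, which was CgA-KO/hTau replicate 4.

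**Figure D1:**
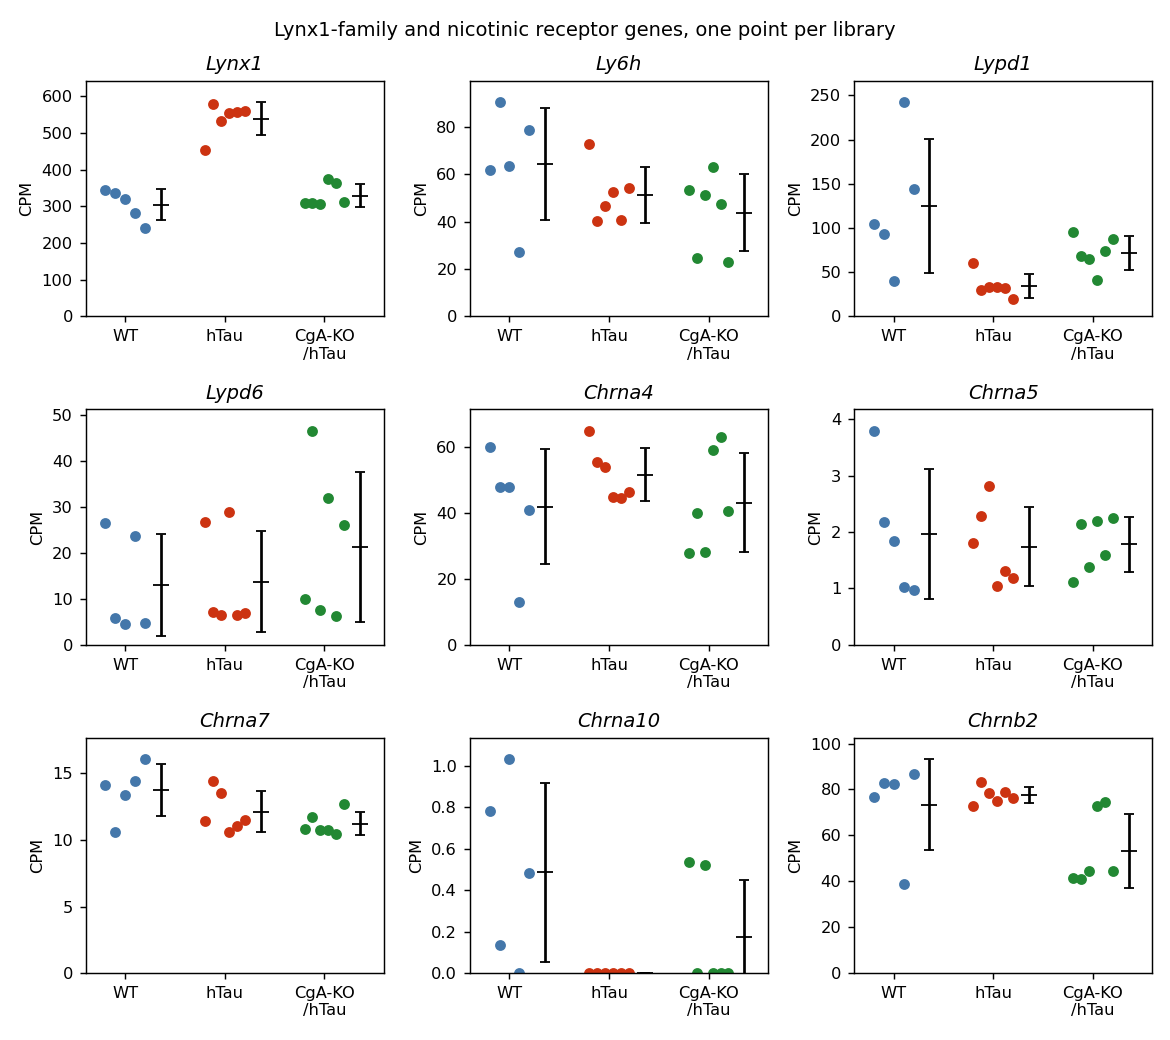
Level of each member gene in CPM (vertical axes, starting at 0) in every library, with WT in blue, hTau in red and CgA-KO/hTau in green; the black bar is the mean ± SD of the genotype (n = 5, 6 and 6). Lynx1 in hTau, at 454 to 579 CPM, sits above all other libraries, Lypd1 is highest in WT, and Chrna10 is at 0 in all hTau libraries.

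Lynx1 averaged 305 ± 43.1 CPM over the WT libraries (SD, n = 5), 539 ± 44.3 CPM over hTau (SD, n = 6) and 329 ± 32.0 CPM over CgA-KO/hTau (SD, n = 6). The log2 fold change against hTau was -0.82 (SE 0.11) for WT and -0.71 (SE 0.10) for CgA-KO/hTau. These values chose the gene, and the libraries of 5.13% of all genes tested were lower in WT than in hTau without overlap, and of 3.79% lower in CgA-KO/hTau without overlap. The choice did not set WT against CgA-KO/hTau directly but asked both to be lower than hTau, so that comparison is not free of it. WT and CgA-KO/hTau differed by -0.11 (SE 0.10), with an adjusted p of 0.588. Their libraries overlapped, with 2 of 5 WT libraries below the lowest CgA-KO/hTau library and none above the highest.

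Markers of fast-spiking interneurons were also higher in hTau for part of their list. These cells hold parvalbumin and inhibit the bodies of pyramidal neurons. The 9 markers, among them Pvalb, the parvalbumin gene, and Syt2, a calcium sensor of their terminals, summed to 239 to 343 CPM in WT, 375 to 490 CPM in hTau and 179 to 386 CPM in CgA-KO/hTau. Of the 9, 4 were lower in WT than in hTau and 4 lower in CgA-KO/hTau than in hTau, and none was higher. Over all genes tested, 1.95% and 4.22% were called as lower in these comparisons. The 8 markers of upper-layer neurons summed to 837 to 1200 CPM in WT, 1230 to 1420 CPM in hTau and 734 to 1290 CPM in CgA-KO/hTau, with 2 lower and 1 higher than in hTau in each comparison. In bulk tissue, fewer cells of a type and less RNA per cell cannot be told apart. With the fast-spiking score, the mean of the markers' centred log2(CPM + 1), as a covariate, a setting chosen after seeing the data, the log2 fold change of Lynx1 was -0.59 for WT against hTau and -0.50 for CgA-KO/hTau against hTau. With the striatum score in its place, the former was -0.65. Without WT replicates 4 and 5 it was -0.70. The part of the upper-layer cells in the result was not tested.

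**Figure D2:**
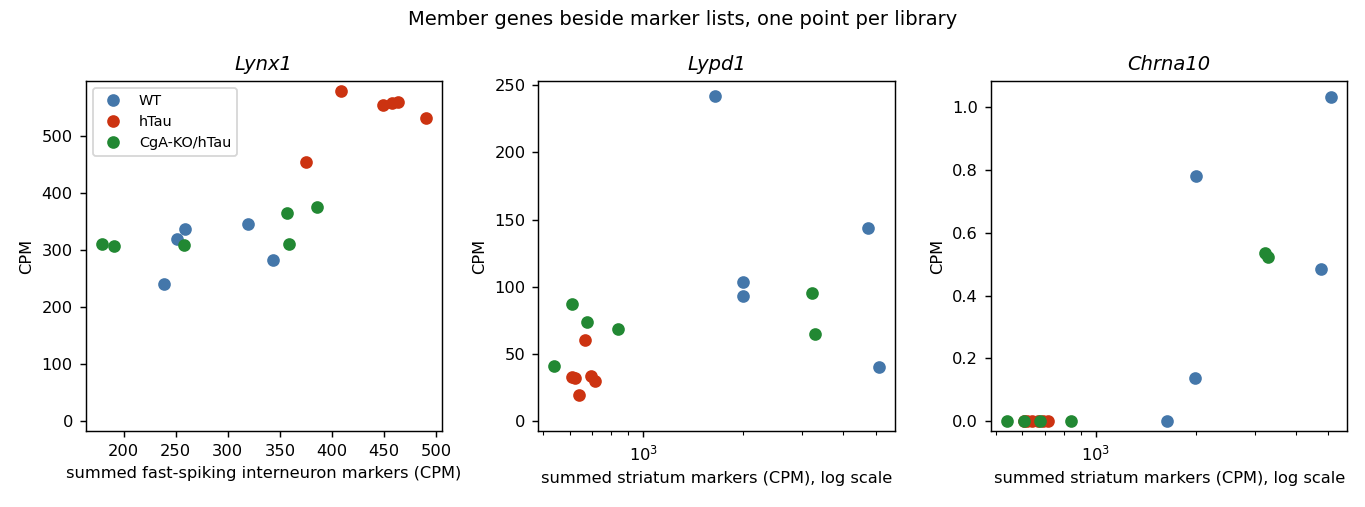
Level of Lynx1 against the summed markers of fast-spiking interneurons (left), and of Lypd1 (middle) and Chrna10 (right) against the summed markers of striatum on a log axis, all in CPM, with 1 point per library coloured by genotype. Lynx1, chosen as higher in hTau, is at 454 CPM or more only where the fast-spiking markers reach 375 CPM or more. CgA-KO/hTau replicate 4, with these markers at 386 CPM, holds Lynx1 at 376 CPM. The 6 libraries with counts of Chrna10 all lie at 1990 CPM or more of striatum markers.

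Genes whose levels followed Lynx1 closely over the 17 libraries were sought among 9875 other genes with a mean of at least 10 CPM, by Pearson's r of log2(CPM + 1). Those with the highest values included Vamp1, a vesicle protein of fast synapses (r = 0.95), Sema7a, a membrane-bound semaphorin (0.95), Stard8 (0.95) and Cplx1, a regulator of vesicle release (0.94). The median gene had r = 0.13. Vamp1 was at 113 ± 28.5 CPM in WT, 242 ± 33.0 CPM in hTau and 135 ± 32.9 CPM in CgA-KO/hTau. With the mean of each genotype removed, the closest genes were Stard8 (0.94), Esyt1 (0.93), Adra1b, an alpha-1 adrenergic receptor (0.90), Sema7a (0.89) and Fhl2 (0.88), against a median of 0.09. Stard8 is on the list of upper-layer neuron markers used above. Pvalb had r = 0.90 over the libraries and 0.70 with genotype means removed. Lypd1 ran the opposite way, at -0.83 and -0.60. The 17 libraries share tissue composition and depth with the genes compared, so these values are a description of these libraries.

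Lynx1 sits in a cluster of Ly6 genes. Within 300 kb, the annotation places 32 genes, of which 11 were tested. None of the 11 was called between WT and hTau. All 11 had a negative log2 fold change there, where the median over all genes was -0.01. For some the SE was larger than the change, among them Ly6d (SE 0.81), 4933427E11Rik (SE 0.66), Jrk (SE 0.21) and Adgrb1 (SE 0.12), so that the shared sign is a description. Between CgA-KO/hTau and hTau, Them6 was lower (log2 fold change -0.66, SE 0.17, adjusted p = 0.0247) and Ly6a, an endothelial surface protein in brain, was higher (0.98, SE 0.27, adjusted p = 0.0286). Them6 was 33.1 ± 9.22 CPM in WT, 46.9 ± 6.12 CPM in hTau and 29.6 ± 6.28 CPM in CgA-KO/hTau. Ly6a was also called between WT and CgA-KO/hTau (-1.18, SE 0.29, adjusted p = 0.0217). For WT against hTau, Them6 was at -0.50 (SE 0.18, adjusted p = 0.12) and Ly6a at -0.19 (SE 0.28, adjusted p = 0.748).

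The other neighbours were not called in any comparison. Against hTau their log2 fold changes for WT and CgA-KO/hTau were -0.11 and -0.16 for Adgrb1, -0.84 and 0.67 for the activity gene Arc, -0.16 and -0.61 for Jrk, -0.15 and -0.75 for 4933427E11Rik. They were -0.51 and -0.15 for Ly6e and -0.33 and -0.08 for Ly6c1. Lypd2, Ly6d and Ly6m had means under 0.40 CPM in every genotype. Their values in the same order were -1.68 and -2.16 for Lypd2, -0.06 and 0.59 for Ly6d and -2.09 and 1.01 for Ly6m. Slurp2, the gene next to Lynx1 on the same strand, was listed at 0 in 17 of 17 libraries.

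**Figure D3:**
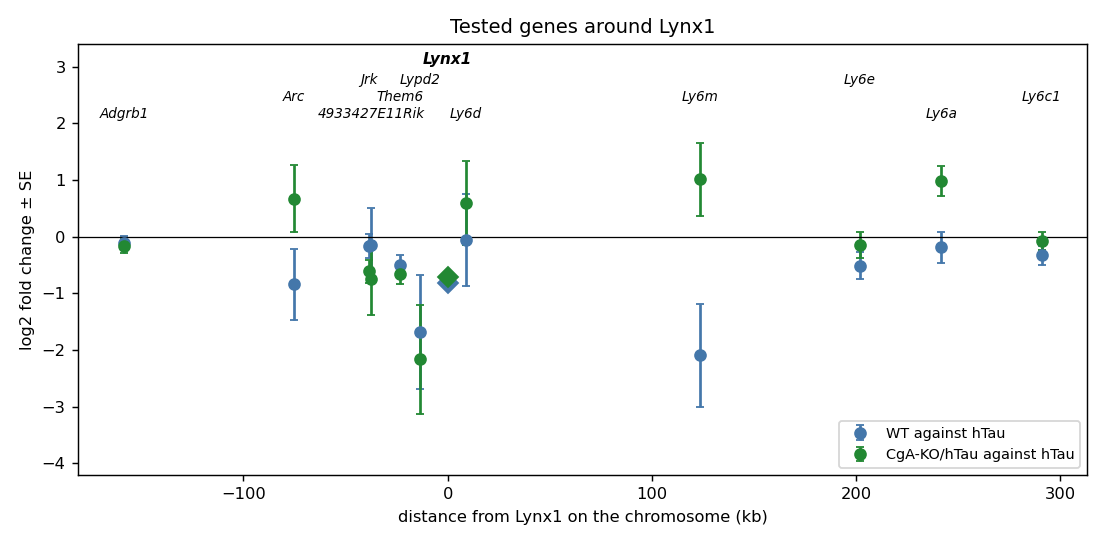
Log2 fold change ± SE (vertical axis) of the 11 tested genes within 300 kb of Lynx1 against their distance from it in kb (horizontal axis), for WT against hTau in blue and CgA-KO/hTau against hTau in green; diamonds at 0 kb are Lynx1 itself. Lynx1 is at -0.82 and -0.71. For WT against hTau the 11 neighbours lie from -0.06 for Ly6d (SE 0.81) to -2.09 for Ly6m (SE 0.91), and none was called. For CgA-KO/hTau against hTau they lie on both sides of 0.

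Among the other members, those called between WT and hTau were Lypd1 and Chrna10, 2 of 8, both higher in WT. Chrna10 was at 0 in every hTau library and passed the filter on low counts only through the 6 WT and CgA-KO/hTau libraries that hold it, so that it had to differ from hTau, and its calls are no support for a difference of the members. Over all genes tested, 5.90% were called in this comparison, and 3.95% were called as higher in WT. Between CgA-KO/hTau and hTau, 1 of 8 was called, which was Chrna10 again. There the shares over all genes were 9.72% and, for higher in CgA-KO/hTau, 5.50%. Between WT and CgA-KO/hTau none of 9 was called by edgeR, against 6.46% of all genes, while 3 of 9 had an unadjusted p under 0.05, and DESeq2 called 0 and voom 1. Both comparisons with hTau share the hTau libraries. The median log2 fold change of the 8 members was 0.19 for WT against hTau and -0.04 for CgA-KO/hTau against hTau, against -0.01 and 0.03 over all genes. It was the same with Chrna10 at its fold bound, and 0.18 and -0.11 without Chrna10.

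**Figure D4:**
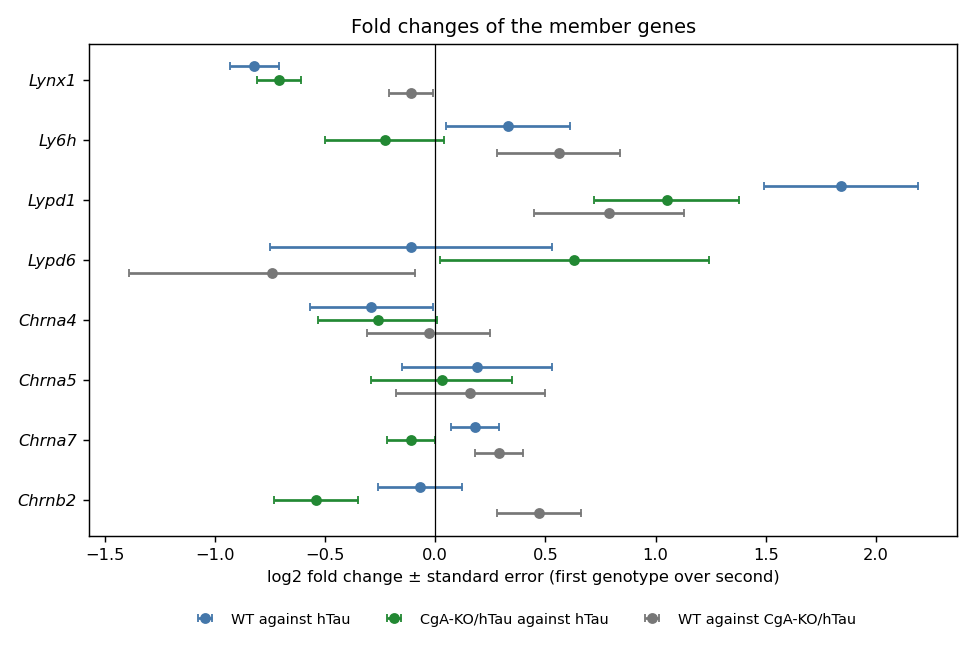
Log2 fold change ± SE (horizontal axis) of 8 member genes in the 3 comparisons, where positive values are higher in the genotype named first; Chrna10 is left out because it was at 0 in all hTau libraries. Lypd1 lies farthest to the right, at 1.84 for WT against hTau, and Lynx1 farthest to the left, at -0.82.

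Lypd1 (ENSMUSG00000026344, chromosome 1 from 125867622 to 125913101, minus strand) encodes Lynx2, a relative of Lynx1 that also binds nicotinic receptors. It was 104, 93.1, 40.1, 242 and 144 CPM in WT replicates 1 to 5. In hTau replicates 1 to 6 it was 60.5, 29.8, 33.5, 33.3, 32.0 and 19.4 CPM. In CgA-KO/hTau replicates 1 to 6 it was 95.4, 68.7, 64.8, 41.2, 73.9 and 87.4 CPM. Of the WT libraries, 4 of 5 lay above the highest hTau library, and WT replicate 3 lay within the hTau range. Of the CgA-KO/hTau libraries, 5 of 6 lay above it.

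Lypd1 averaged 125 ± 75.3 CPM over the WT libraries (SD, n = 5), 34.8 ± 13.7 CPM over hTau (SD, n = 6) and 71.9 ± 19.0 CPM over CgA-KO/hTau (SD, n = 6). It was higher in WT than in hTau by 1.84 on the log2 scale (SE 0.35, adjusted p = 0.00417). Against hTau, CgA-KO/hTau was at 1.05 (SE 0.33), which missed the threshold (adjusted p = 0.0531). That call turned with the setting and was made in 10 of 30 alternatives. Over these the log2 fold change was 0.84 to 1.28, with adjusted p from 0.0116 to 0.316. The call was not made with the striatum or fast-spiking covariate, with near-identical libraries averaged or without CgA-KO/hTau replicates 1 to 3. Leaving out 1 of the 17 libraries gave 0.93 to 1.28, and it was made without WT replicate 3 (adjusted p = 0.0269), WT replicate 4 (0.0238), hTau replicate 1 (0.0303) or CgA-KO/hTau replicate 4 (0.026), and with DESeq2 (0.0134). WT against CgA-KO/hTau was at 0.79 (SE 0.34, adjusted p = 0.186).

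WT replicate 4, the shallowest library, held the highest Lypd1. Without it, WT against hTau was at 1.45 (adjusted p = 0.012), and without WT replicates 4 and 5 it was at 1.18 and no longer called (adjusted p = 0.0756). Without WT replicates 3 and 5, which hold the most striatum markers, it was at 2.08 (adjusted p = 0.00454). With the striatum score as a covariate it was at 1.95 (adjusted p = 0.017), and with the fast-spiking score at 1.63 (adjusted p = 0.052). The 8 markers of layer 6 neurons summed to 231 to 316 CPM in WT, 112 to 260 CPM in hTau and 209 to 260 CPM in CgA-KO/hTau. In hTau replicate 1, which held the highest Lypd1 and the lowest Lynx1 of its genotype, they summed to 260 CPM, against 112 to 197 CPM in the other hTau libraries. Their part in the result was not tested. The gene overlaps Gpr39 on the other strand, which was at 0.20 ± 0.297 CPM in WT and 0.152 ± 0.113 CPM in hTau.

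Ly6h (ENSMUSG00000022577, chromosome 15 from 75551268 to 75567255) encodes a protein that limits the delivery of Chrna7 receptors to the surface. It was 61.7, 90.2, 63.4, 27.3 and 78.5 CPM in WT, 72.6, 40.2, 46.6, 52.5, 40.7 and 54.3 CPM in hTau, and 53.5, 24.5, 51.0, 62.8, 47.3 and 22.9 CPM in CgA-KO/hTau. The groups overlapped throughout, and WT replicate 4 and CgA-KO/hTau replicates 2 and 6 were the lowest. The log2 fold change was 0.33 (SE 0.28, adjusted p = 0.542) for WT against hTau, -0.23 (SE 0.27, adjusted p = 0.623) for CgA-KO/hTau against hTau and 0.56 (SE 0.28, adjusted p = 0.265) for WT against CgA-KO/hTau.

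Lypd6 (ENSMUSG00000050447, chromosome 2 from 50066429 to 50193569) encodes a relative of Lynx1 that acts on nicotinic and Wnt signalling. It fell into separate ranges that did not follow genotype. In 10 libraries it was 4.5 to 9.90 CPM and in 7 libraries 23.8 to 46.6 CPM. The higher range held WT replicates 1 and 4, hTau replicates 1 and 4, and CgA-KO/hTau replicates 2, 4 and 6. In hTau replicate 4 it was 29.0 CPM, while in replicates 5 and 6, the libraries closest to it, it was 6.57 and 7.04 CPM. Of 9876 genes with a mean of at least 10 CPM, 117 differed by more than 2-fold between hTau replicates 4 and 5. The neighbouring family member Lypd6b had 9.20 to 18.7 CPM over all libraries, with no such gap. Lypd6 was not called in any comparison, with adjusted p of 0.953, 0.528 and 0.559, and its log2 fold changes of -0.11 (SE 0.64), 0.63 (SE 0.61) and -0.74 (SE 0.65) have wide errors.

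Of the receptor subunits, Chrna4 (ENSMUSG00000027577, chromosome 2 from 181018380 to 181043546) and Chrnb2 (ENSMUSG00000027950, chromosome 3 from 89746195 to 89764632) form the main high-affinity receptor of the brain. Chrna4 was 59.8, 47.7, 47.9, 13.1 and 40.9 CPM in WT, 64.8, 55.4, 53.8, 44.9, 44.5 and 46.3 CPM in hTau, and 27.7, 39.9, 28.2, 58.9, 63.0 and 40.6 CPM in CgA-KO/hTau. WT replicate 4 was far below the other WT libraries. CgA-KO/hTau replicates 4 and 5 lay in the upper part of the hTau range, while the other 4 lay below every hTau library. Chrna4 was not called, at -0.29 (SE 0.28, adjusted p = 0.597) for WT against hTau, -0.26 (SE 0.27, adjusted p = 0.56) for CgA-KO/hTau against hTau and -0.03 (SE 0.28, adjusted p = 0.969) for WT against CgA-KO/hTau.

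Chrnb2 had a like pattern. It was 76.8, 82.7, 82.3, 38.8 and 86.6 CPM in WT and 72.8, 83.2, 78.6, 75.0, 78.8 and 76.3 CPM in hTau. In CgA-KO/hTau it was 41.6, 41.1, 44.5, 73.0, 74.6 and 44.6 CPM. Replicates 4 and 5 lay within the hTau range, and the other 4 lay below every hTau library. Beside WT replicate 4, these 4 were the lowest libraries of all.

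The log2 fold change of Chrnb2 for CgA-KO/hTau against hTau was -0.54 (SE 0.19, adjusted p = 0.0708), which missed the threshold. It was called in 7 of 30 alternatives, among them without WT replicate 4 (adjusted p = 0.021), without CgA-KO/hTau replicate 4 (0.026) or 5 (0.0289), and with DESeq2 (-0.52, adjusted p = 0.0406). Over the alternatives the log2 fold change was -0.66 to -0.28, with adjusted p from 0.00389 to 0.532. Chrnb2 was not called with the striatum or fast-spiking covariate, with near-identical libraries averaged or without CgA-KO/hTau replicates 1 to 3. For WT against CgA-KO/hTau the log2 fold change was 0.47 (SE 0.19, adjusted p = 0.166), and 0.63 without WT replicate 4 (adjusted p = 0.0233). For WT against hTau it was -0.07 (SE 0.19, adjusted p = 0.877). Of the 4 low CgA-KO/hTau libraries, replicates 1 and 3 held striatum markers at 3220 and 3280 CPM, while replicates 2 and 6 held 839 and 608 CPM, near the 609 to 715 CPM of hTau. Oligodendrocyte markers summed to 2940, 2530 and 2960 CPM in replicates 1 to 3 and to 1600 CPM in replicate 6, against 1230 to 1770 CPM in hTau. Astrocyte markers summed to 1370, 1320, 1380 and 819 CPM in these libraries, against 654 to 918 CPM in hTau. The part of these tissues and cells in the result was not tested. Chrnb2 overlaps Adar on the other strand, at 123 ± 50.3 CPM in WT, 94.1 ± 34.1 CPM in hTau and 87.0 ± 19.1 CPM in CgA-KO/hTau. Since the use of strand in the counting is not given in the sources used here, reads of the pair cannot be told apart.

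Over the 17 libraries, log2 levels of Chrna4 and Chrnb2 had r = 0.74, and 0.87 with genotype means removed. Without WT replicate 4 the latter was 0.75. These points share library and depth, and the value is a description. Chrna4 and Lynx1 had r = 0.46, and 0.42 with genotype means removed.

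Chrna5 (ENSMUSG00000035594, chromosome 9 from 54980880 to 55007779), the accessory subunit found mainly in deep cortical layers, was low. It ranged from 0.966 to 3.79 CPM in WT, from 1.05 to 2.81 CPM in hTau and from 1.11 to 2.25 CPM in CgA-KO/hTau, and the groups overlapped throughout. It was not called, with log2 fold changes of 0.19 (SE 0.34, adjusted p = 0.80), 0.03 (SE 0.32, adjusted p = 0.966) and 0.16 (SE 0.34, adjusted p = 0.84) in the same order of comparisons.

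Chrna7 (ENSMUSG00000030525, chromosome 7 from 63098692 to 63212569), which forms receptors of a single subunit type, varied little. It was 14.1, 10.6, 13.3, 14.4 and 16 CPM in WT, 11.4, 14.4, 13.5, 10.6, 11.0 and 11.5 CPM in hTau, and 10.8, 11.7, 10.7, 10.7, 10.4 and 12.7 CPM in CgA-KO/hTau. In 4 of 5 WT libraries it was above the highest CgA-KO/hTau library. WT against CgA-KO/hTau was at 0.29 (SE 0.11), with an unadjusted p of 0.0204 that did not pass the correction (adjusted p = 0.14). Against hTau, WT was at 0.18 (SE 0.11, adjusted p = 0.398) and CgA-KO/hTau at -0.11 (SE 0.11, adjusted p = 0.528).

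Chrna10 (ENSMUSG00000066279, chromosome 7 from 102111266 to 102116828) encodes a subunit best known from hair cells of the inner ear. It was 0.781, 0.138, 1.03, 0 and 0.483 CPM in WT replicates 1 to 5. It was at 0 in 6 of 6 hTau libraries. In CgA-KO/hTau it was 0.535 and 0.523 CPM in replicates 1 and 3 and 0 in the other 4. A count of 0 allows 3 fragments, about 9 deposited counts, which is at most 0.164 CPM in the shallowest hTau library and 1.03 CPM in WT replicate 4. In the 4 CgA-KO/hTau libraries at 0, it allows 0.08 to 0.26 CPM. The limits cover counting error only.

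Against the limit of the shallowest hTau library, the mean of Chrna10 was at least 2.96-fold higher in WT (0.486 ± 0.429 CPM, SD, n = 5) and at least 1.08-fold higher in CgA-KO/hTau (0.176 ± 0.273 CPM, SD, n = 6). The adjusted p against hTau was 0.0167 and 0.0325, values that the filter and the group at 0 in part fix and that are given as a description. With only the 2 genotypes compared, Chrna10 did not pass the filter in either comparison with hTau. For WT against CgA-KO/hTau the adjusted p was 0.513. The call for CgA-KO/hTau against hTau rested on replicates 1 and 3: without replicate 1 the adjusted p was 0.0636 and without replicate 3 it was 0.0707. It was also lost without hTau replicate 2 (0.0611), 3 (0.056), 4 (0.0513), 5 (0.0564) or 6 (0.0584), and with the near-identical libraries averaged (0.171). Averaging them also ended the call between WT and hTau (adjusted p = 0.0757), as did leaving out WT replicates 4 and 5 (0.0509) or WT replicates 3 and 5 (0.0941).

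All 6 libraries with counts of Chrna10 held striatum markers at 1990 CPM or more, and WT replicate 4, at 1640 CPM, was the next. With the striatum score as a covariate, Chrna10 was not called for WT against hTau (adjusted p = 0.207) or CgA-KO/hTau against hTau (adjusted p = 0.318). The part of that tissue in the result was not tested. Chrna10 overlaps Art1 on the other strand, which was at most 0.139 CPM in any library.

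Set per kb of exon length, Lynx1 was the most abundant member in every genotype, at 65.4 ± 9.24 CPM per kb in WT, 116 ± 9.51 in hTau and 70.6 ± 6.86 in CgA-KO/hTau (SD). In hTau the order below it was Ly6h (12.1 ± 2.84 CPM per kb), Chrna4 (10.3 ± 1.58), Chrnb2 (9.24 ± 0.429), Lypd1 (4.94 ± 1.94), Lypd6 (3.71 ± 2.93), Chrna7 (2.68 ± 0.335) and Chrna5 (0.556 ± 0.222), with Chrna10 at 0. The gap was smaller than the larger of both SDs between Ly6h and Chrna4, between Chrna4 and Chrnb2, between Lypd1 and Lypd6, and between Lypd6 and Chrna7. In WT, Lypd1 was at 17.7 ± 10.7 CPM per kb and Ly6h at 15.2 ± 5.62, followed by Chrnb2 at 8.76 ± 2.35 and Chrna4 at 8.34 ± 3.48. In CgA-KO/hTau, Ly6h (10.3 ± 3.86 CPM per kb) and Lypd1 (10.2 ± 2.69) were level.

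Other genes of the nicotinic system came from fixed lists. Of 11 further receptor subunits, 7 were tested and Chrna3, a subunit of ganglionic and habenular receptors, was called. It was higher in WT than in CgA-KO/hTau by 1.41 on the log2 scale (SE 0.31, adjusted p = 0.0116), at 1.12 to 3.28 CPM against 0.535 to 0.936 CPM. Without WT replicates 3 and 5 it was at 1.21 and not called (adjusted p = 0.071). Over all genes tested, 6.46% were called between WT and CgA-KO/hTau. None of the 7 was called against hTau by edgeR, where 3 (WT) and 1 (CgA-KO/hTau) had an unadjusted p under 0.05. The median log2 fold change of the list was -0.25 for WT against hTau and -0.39 for CgA-KO/hTau against hTau.

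Of 44 further Ly6/uPAR genes, 15 were tested. None was called between WT and hTau by edgeR (2 with an unadjusted p under 0.05), and 2 were called between CgA-KO/hTau and hTau, Ly6a as given above and Ly6c2, which was lower (-1.18, SE 0.22, adjusted p = 0.00544). Ly6a and Ly6c2 were also the genes called between WT and CgA-KO/hTau, where Ly6c2 was at 0.86 (SE 0.23, adjusted p = 0.0342). Over all genes tested, 5.90% were called between WT and hTau, 9.72% between CgA-KO/hTau and hTau and 6.46% between WT and CgA-KO/hTau. Ly6a was 2.58 ± 0.674 CPM in WT, 2.95 ± 0.769 CPM in hTau and 5.82 ± 2.61 CPM in CgA-KO/hTau. It was highest in CgA-KO/hTau replicates 1 to 3, at 10.3, 6.12 and 7.07 CPM, against 3.49, 3.89 and 4.04 CPM in replicates 4 to 6. Without replicates 1 to 3, Ly6a was at 0.36 against hTau (adjusted p = 0.443) and WT at -0.56 against CgA-KO/hTau (adjusted p = 0.263), and Ly6c2 was at -1.10 against hTau (adjusted p = 0.0664) and WT at 0.77 against CgA-KO/hTau (adjusted p = 0.153), so that none of these calls was made. With near-identical libraries averaged, none of these calls was made either. The adjusted p against hTau was then 0.192 for Ly6a and 0.0576 for Ly6c2. For WT against CgA-KO/hTau it was 0.0545 and 0.114. CgA-KO/hTau replicates 1 to 3 held the highest astrocyte and oligodendrocyte scores of all libraries, and their part was not tested.

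Of 8 genes for receptor assembly and trafficking, 2 were called between WT and hTau and none in the other comparisons by edgeR, where 2 and 3 had an unadjusted p under 0.05. The shares over all genes tested were 5.90% between WT and hTau, 9.72% between CgA-KO/hTau and hTau and 6.46% between WT and CgA-KO/hTau. Tmem35a, the gene of NACHO, a chaperone needed for Chrna7 receptors, was higher in WT (0.53, SE 0.12, adjusted p = 0.0147), at 63.6 ± 11.5 CPM against 44.0 ± 3.96 CPM. Ubxn2a, which guards subunits from breakdown, was lower in WT (-0.36, SE 0.09, adjusted p = 0.0207), at 58.1 ± 4.49 CPM against 74.6 ± 4.35 CPM. Its libraries did not overlap, as for 5.13% of all genes tested in this direction. Neither call was made without WT replicates 4 and 5 (adjusted p = 0.0662 for Tmem35a and 0.0828 for Ubxn2a) or without WT replicates 3 and 5 (0.113 and 0.182). Averaging the near-identical libraries also ended both calls (0.0884 and 0.0826).

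Markers of cholinergic neurons, the source of acetylcholine, were tested for 9 of 10 genes. Between WT and hTau 8 were called and all 8 were higher in WT, while 2 were higher in CgA-KO/hTau than in hTau and 3 higher in WT than in CgA-KO/hTau. Over all genes tested, 3.95%, 5.50% and 2.89% were called in these directions. Without WT replicates 3 and 5, the list's calls were 3, 2 and 0 in the same order, and without CgA-KO/hTau replicates 1 to 3 they were 9, 0 and 8. The 9 and the 8 include the listed gene that the main fit did not test. Ache was not among the 9 (adjusted p = 0.151). With the striatum score as a covariate the list's calls were 2, 1 and 3. Tacr3, a tachykinin receptor, was at 5.15 ± 3.76 CPM in WT and 1.07 ± 0.246 CPM in hTau (2.28, SE 0.36, adjusted p = 0.00117). Slc5a7, the choline transporter, was at 13.3 ± 7.83 CPM in WT and 1.36 ± 0.309 CPM in hTau (3.29, SE 0.65, adjusted p = 0.00521), and at 2.49 without WT replicates 3 and 5 (adjusted p = 0.0782). Ngfr, the low-affinity neurotrophin receptor, was at 2.55 ± 1.03 CPM and 0.935 ± 0.174 CPM (1.44, SE 0.28, adjusted p = 0.00535). Ngfr was not called without WT replicates 4 and 5 (adjusted p = 0.0825) or 3 and 5 (0.1), or with near-identical libraries averaged (0.054). Lhx8 and Isl1, transcription factors of forebrain cholinergic neurons, were at 0 in 6 of 6 hTau libraries and at 1.11 to 4.17 and 1.19 to 4.59 CPM in WT. In CgA-KO/hTau, Lhx8 was at 1.23 and 1.27 CPM in replicates 1 and 3 and at 0 in the other 4, and Isl1 at 2.03, 0.857 and 2.83 CPM in replicates 1 to 3 and at 0 in the other 3. Both passed the filter only through the libraries that hold them, so that their calls against hTau are counted above as a description. Lhx8 and Isl1 were the only 2 list genes called between CgA-KO/hTau and hTau. They were also the only 2 called between WT and hTau with the striatum covariate. Their calls are no support for a difference of the list. Without CgA-KO/hTau replicates 1 to 3, both were at 0 in CgA-KO/hTau and in hTau. Their calls for WT against CgA-KO/hTau in that setting are no support either. Ache, the enzyme that breaks acetylcholine down, was called between WT and CgA-KO/hTau (0.71, SE 0.15, adjusted p = 0.00954). Ache was not called without WT replicates 3 and 5 (adjusted p = 0.0811) or without CgA-KO/hTau replicates 1 to 3 (0.101).

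Chat, the enzyme that makes acetylcholine, was 10.0 and 9.97 CPM in WT replicates 3 and 5, which also held the most striatum markers, and 2.69 to 3.08 CPM in the other WT libraries. In CgA-KO/hTau it was 4.17 and 3.86 CPM in replicates 1 and 3 and 0.12 to 0.387 CPM in replicates 2 and 4 to 6, and in hTau 0.216 to 0.475 CPM. The libraries with high Chat were thus those with striatum markers at 1640 CPM or more, and Isl1 is on both lists. The part of that tissue in these values was not tested.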

How the data were processed

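The authors aligned trimmed reads to mm10 with STAR, quantified them with StringTie and converted the result with prepDE, and the deposited values are whole-number counts per gene without normalization. The submitters' processing notes name Trimmomatic 0.39, STAR 2.7.10b, StringTie 1.3.6 and DESeq2 1.42.0. The annotation release and strand setting are not given in the sources used here. Low counts peaked at 3 and 6, so that about 3 counts stood for 1 fragment. Total counts were 8838334 to 227651681 per library. A count of 0 was taken to allow 3 fragments, or 9 counts, which covers counting error only.

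Counts were analysed with edgeR 4.0.16 in R 4.3.3 (TMM, filterByExpr, 1 quasi-likelihood fit to all 17 libraries with a mean per genotype, Benjamini-Hochberg adjustment over 23062 genes). The script was tested on simulated data. Alternatives were DESeq2 1.42.0, its size factors in edgeR, no filter on low counts, only the genotypes compared, limma 3.58.1 voom with quality weights, the replicate block, a Ddx3y or striatum covariate, near-identical libraries averaged, each library left out, and the study's threshold (log2 fold change beyond 0.5, unadjusted p under 0.01). Leaving out WT replicates 4 and 5, WT replicates 3 and 5 or CgA-KO/hTau replicates 1 to 3, and a fast-spiking covariate, were chosen after seeing the data. Of 56953 identifiers, 52029 matched GENCODE M21 (GRCm38), which gave coordinates and exon lengths.

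The members and lists were chosen with earlier results of these data known. All members are named, as are list genes called in any comparison (up to 6 per list with the smallest p), tested genes within 300 kb of Lynx1, and the 5 genes with the highest r with Lynx1, apart from values not reported here. Lypd6b, Slurp2, Gpr39, Art1, Adar, Pvalb, Syt2, Chat and Chrnb3 were added after values were seen. Tables and plots came from Python 3.11.15, pandas 2.3.3 and matplotlib 3.10.9.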

Additional observations from a re-analysis of the deposited data

Results flagged for a closer look

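Each genotype's libraries were searched for a highest or lowest library whose gap to the next, as a share of the range, passed Dixon's 95% critical value, over 23 genes in 3 genotypes, 69 groups in all. Chance flags about 1 in 20 groups, or 3.5 here, and 5 were found. Lynx1 in hTau replicate 1 was 454 CPM, against 532 to 579 CPM in the other hTau libraries. Lypd1 in the same library was 60.5 CPM, against 19.4 to 33.5 CPM. Ubxn2a, again in hTau replicate 1, was 83.2 CPM, against 71.0 to 74.0 CPM. Chrnb2 in WT replicate 4, the shallowest library, was 38.8 CPM, against 76.8 to 86.6 CPM. Ly6c2 in hTau replicate 2 was 5.55 CPM, against 3.48 to 4.15 CPM.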

How the results depend on the processing

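Of the members other than Lynx1, the count called between WT and hTau was 2 in the edgeR fit. It was 1 with only the 2 genotypes compared, where Chrna10 did not pass the filter, with the striatum covariate, without WT replicates 3 and 5 and with near-identical libraries averaged, and 0 without WT replicates 4 and 5 and with the fast-spiking covariate. Between CgA-KO/hTau and hTau the count was 1. It was 3 with DESeq2, with voom, without WT replicates 4 and 5 and at the study's threshold, 2 with DESeq2's size factors, without WT replicates 3 and 5 and with only the 2 genotypes compared, where Chrna10 again did not pass the filter, and 0 with the striatum covariate, the fast-spiking covariate, near-identical libraries averaged and CgA-KO/hTau replicates 1 to 3 left out. Leaving out each library in turn gave 0 to 3. Without CgA-KO/hTau replicates 1 to 3, Chrna10 was at 0 in both genotypes and has no value. Between WT and CgA-KO/hTau the count was 0, and 1 with voom (Chrnb2, adjusted p = 0.0134) and without CgA-KO/hTau replicates 1 to 3 (Chrna10, adjusted p = 0.0477), with 0 to 1 as libraries were left out in turn. Without those replicates, Chrna10 passed the filter only through WT, so that this call is no support for a difference of the members. The causes were not tested.

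Over all genes, the counts called were 1361, 2242 and 1489 for WT against hTau, CgA-KO/hTau against hTau and WT against CgA-KO/hTau, and ranged over the settings from 430 to 3967, 156 to 5229 and 266 to 4968. DESeq2 gave 2396, 3958 and 2623.

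The replicate numbers did not pair the libraries: over 16 same-numbered pairs, deviations from genotype means had r of -0.232 to 0.437 (median -0.04, 2 pairs over 0.1), and 3 of 17 libraries were closest to their own number. With the replicate block, the members called between CgA-KO/hTau and hTau were 0, Chrna5 for WT against CgA-KO/hTau was -0.01, and all genes called were 660, 654 and 614.

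Directions turned for members that were not called. For WT against hTau, the striatum covariate gave -0.02 for Ly6h, 1.46 for Lypd6, 0.29 for Chrna4 and 0.18 for Chrnb2, and the fast-spiking covariate 0.80 for Lypd6, 0.27 for Chrna4 and 0.25 for Chrnb2. Averaging gave -0.02 for Chrna5, voom 0.03 for Chrnb2, and leaving out WT replicates 4 and 5 gave 0.05 for Chrnb2 and WT replicates 3 and 5 0.43 for Lypd6. For CgA-KO/hTau against hTau, leaving out CgA-KO/hTau replicates 1 to 3 gave 0.06 and the fast-spiking covariate 0.18 for Chrna4, while no filter gave -0.02 and averaging -0.09 for Chrna5. For WT against CgA-KO/hTau, leaving out WT replicates 4 and 5 gave 0.02 for Lynx1 and 0.27 for Chrna4, the striatum covariate 0.14 for Lypd6 and 0.36 for Chrna4, voom 0.22 and the fast-spiking covariate 0.09 for Chrna4, the Ddx3y covariate -0.05 for Chrna5, and leaving out CgA-KO/hTau replicates 1 to 3 gave -0.02 for Chrna5. Leaving out each library in turn gave -0.59 to 0.25 for Lypd6, -0.17 to 0.38 for Chrna5 and -0.14 to 0.08 for Chrnb2 (WT against hTau), -0.07 to 0.23 for Chrna5 (CgA-KO/hTau against hTau), and -0.19 to 0.19 for Chrna4 and -0.20 to 0.35 for Chrna5 (WT against CgA-KO/hTau). Lynx1 against hTau was at -0.87 to -0.59 for WT and -0.76 to -0.50 for CgA-KO/hTau over the settings. It was chosen as higher in hTau in these same libraries, so its negative sign in every setting is a description and no support. The count of 0 for Chrna10 in WT replicate 4 allows a level of up to 1.03 CPM.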

Other observations

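Chrnb3, a nicotinic subunit of catecholamine and habenular neurons that was not called, was chosen after its values were seen. It averaged 10.6 ± 2.15 CPM over hTau (SD, n = 6), 4.11 ± 3.47 CPM over WT (SD, n = 5) and 3.38 ± 2.59 CPM over CgA-KO/hTau (SD, n = 6). All 6 CgA-KO/hTau libraries and 4 of 5 WT libraries lay below the lowest hTau library, at 6.36 CPM. Of all genes tested, 3.79% were lower in CgA-KO/hTau than in hTau without overlap. The log2 fold change of Chrnb3 was -1.66 (SE 0.60, adjusted p = 0.0826, edgeR) for CgA-KO/hTau against hTau and -1.47 (SE 0.65, adjusted p = 0.199, edgeR) for WT against hTau.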
